A study of Arabidopsis thaliana with 12 samples.

Results

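Transcript levels in SAB seedlings of Arabidopsis thaliana were compared with those in AB seedlings on Affymetrix ATH1 arrays, 3 arrays of each line and 6 of the 12 arrays of the series. The arrays were chosen by the line and replicate number in their titles, and the replicate numbers were used to pair them. Every probe set other than the 64 spiked or quality controls was tested, which is 22746 of 22810. SAB and AB are both knock-out lines with T-DNA insertions, and so is the line named SIZ1, while COL is the Columbia wild type. The SIZ1 and COL lines, with 3 arrays each, served as the matching comparison in plants without the AB insertions. The labels give no allele and do not spell out which genes AB and SAB lack, so the make-up of the lines was read from the transcripts described below. All lines were grown as untreated seedlings on Murashige and Skoog medium at 23 °C. An age, 10 days, is recorded for AB 1 and AB 2 alone, where the other arrays carry a harvest date. Separate cultures are not recorded for the arrays of a line, so a p-value here reflects spread that could be technical.

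SUMO is a small protein that is joined to other proteins through a chain of an activating enzyme, a conjugating enzyme and a ligase, and is cut off again by SUMO proteases. SIZ1 is the main SUMO ligase of Arabidopsis, and plants that lack it are known to be dwarfed, to hold much salicylic acid and to mount defence without attack. SPF1 and SPF2 are SUMO proteases of the ULP2 type. Setting SAB against AB asks what the loss of the ligase does in plants that carry the AB insertions, and setting the SIZ1 line against COL asks the same in otherwise wild-type plants.

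The targeted transcripts were examined first. The brighter SIZ1 probe set in AB stood at 2.51, 2.49 and 2.55 in the 3 SAB arrays, against 5.16, 5.45 and 5.18 in the 3 AB arrays, where values are deposited log2 expression levels. The groups lay far apart, and the difference of SAB minus AB was -2.75 (limma adjusted p = 1.19e-05). The SAB level lay at the bottom of the scale, near the first quartile of all probe set means, 2.51, so the fall is a lower estimate. The SIZ1 line averaged 2.40 ± 0.18 (SD, n = 3) and COL 5.50 ± 0.12, so the low lines were SAB and SIZ1.

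A dimmer SIZ1 probe set went the other way, with 3.94, 3.84 and 3.94 in SAB and 3.27, 3.07 and 3.08 in AB, a rise of 0.77 (limma adjusted p = 0.00878, and 0.0544 with RNA amount as a covariate). It was also higher in the SIZ1 line, at 4.32 ± 0.27, than in COL, at 3.01 ± 0.09 (SD, n = 3 each). The positions of the probes and of the insertion were not used here. SPF1 (AT1G09730) stood at 3.28, 3.29 and 3.13 in SAB, and at 3.30, 2.80 and 3.42 in AB. Its groups overlapped, and the difference of 0.06 was not called (limma adjusted p = 0.952). Both lines lay below the SIZ1 line, at 4.29 ± 0.07, and COL, at 4.76 ± 0.03. AT4G33620, which encodes SPF2, lay near the floor in every line. It read 2.65 to 2.76 in SAB, 2.62 to 2.67 in AB, 2.63 to 2.65 in the SIZ1 line and 2.66 to 2.89 in COL. SAB thus differed from AB in the SIZ1 transcript and not detectably in that of SPF1. The SPF2 probe set was too dim in all lines to show whether that transcript differed.

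Seedling tissue was present in all 6 arrays. LHCB4.1, a light-harvesting protein of leaves, read 12.20 to 12.28 in SAB and 12.23 to 12.35 in AB, and PYK10, a glucosidase abundant in roots, read 11.88 to 11.91 in SAB and 11.78 to 11.82 in AB. SAB was labelled from 850 to 894 ng of RNA per array and AB from 678 to 790 ng, ranges that do not overlap. The difference between the 3′ and 5′ probe sets of the Actin control was 2.68 to 2.76 in SAB and 2.51 to 2.64 in AB, and that of GAPDH was 2.41 to 2.60 in SAB and 2.42 to 2.65 in AB. Poly-A spike controls averaged 4.09 to 4.45 in SAB and 4.36 to 4.96 in AB. A fit with RNA amount as a covariate is given with the counts, and the part of the control values in the results was not tested.

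Between SAB and AB a small share of the array differed, in both directions. Of the 22746 probe sets, 1007 were called (4.43%), 534 higher in SAB (2.35%) and 473 lower (2.08%), at a limma adjusted p under 0.05. The median size of a called change was 0.59 on the log2 scale, and 105 rises and 70 falls reached at least 1, a doubling or halving. The 17 rises and 11 falls of at least 2 included the SIZ1 transcript itself. The median difference over all probe sets was 0.0048. In every called probe set the 3 SAB values lay on the same side of all 3 AB values. Separation alone was common, since 10.5% of all probe sets had every SAB value above every AB value and 10.3% had every SAB value below.

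Pairing by number in the fit of all arrays raised the count to 1552 (6.82%), of which 773 were higher (3.4%) and 779 lower (3.42%). Among them were 925 of the 1007. Pairing in a fit of the SAB and AB arrays alone, which leaves fewer residual degrees of freedom, called 1 probe set. With the amount of RNA as a covariate 161 probe sets were called, 104 higher and 57 lower. With AB 3 as the only AB array, leaving out AB 1 and AB 2 whose labels give an age, 252 were called, 126 in each direction, on the assumption that the lone AB array varies like the other lines. Leaving out AB 2 alone gave 469 calls, AB 1 alone 580, SAB 1 alone 598 and SAB 2 alone 655. How much of the difference in counts comes from fewer arrays or from RNA amount was not tested.

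Exactly 1 gene was named by 524 of the called probe sets, 264 of them higher and 260 lower. A further 24 named several genes, and 459 are unnamed here. Among the 13355 genes measured under a name, 263 were higher (1.97%) and 259 lower (1.94%), and these shares are the background for the gene groups below.

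**Figure D1:**
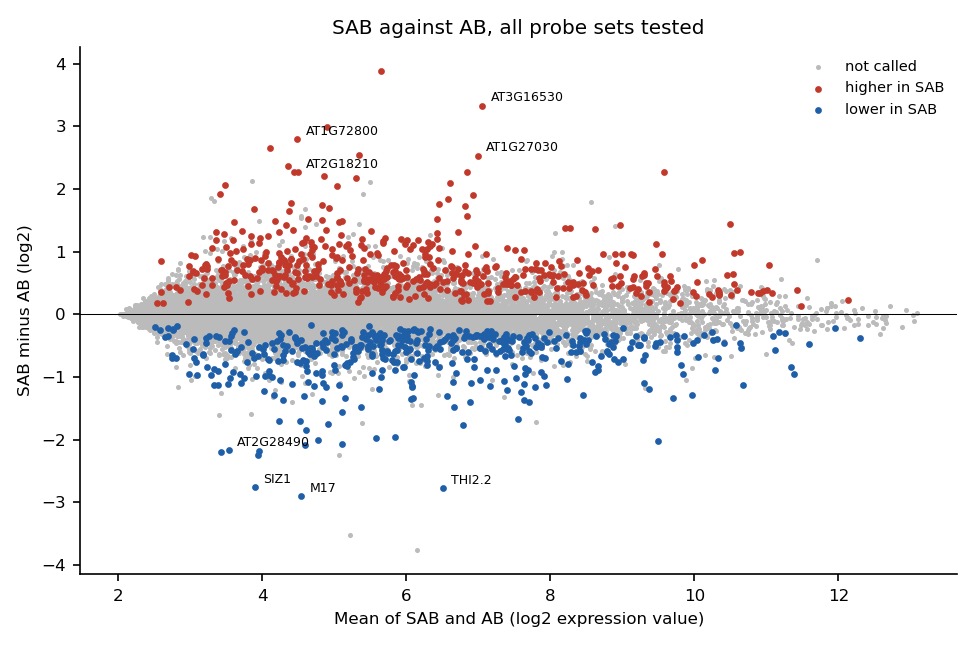
Each point is 1 of the 22746 probe sets, with the mean of SAB and AB on the x axis (log2 expression value) and SAB minus AB on the y axis (log2). Red points are the 534 called higher and blue points the 473 called lower, which lie at all levels above the floor near 2.5, with the genes of largest change named.

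Several of the largest named rises belonged to protein families known from plant defence. AT3G16530, a legume-type lectin that binds sugars of microbial and plant walls, read 9.09, 8.59 and 8.48 in SAB, against 5.47, 4.81 and 5.88 in AB. SAB was 10.1-fold higher, a difference of 3.33 ± 0.46 (SE, limma adjusted p = 0.00542), and the lowest SAB array stood well above the highest AB array. AT3G04210 encodes a protein with the TIR and nucleotide-binding domains of plant immune receptors. It read 5.67, 5.58 and 5.46 in SAB and 3.29, 3.30 and 3.31 in AB, and the rise of 2.27 had the lowest adjusted p of the 12 largest rises (limma, 2.65e-05). AB arrays barely varied for this gene.

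AT2G19970 encodes a secreted protein related to PR-1, which is an antimicrobial marker of salicylic acid signalling. It read 6.57, 6.42 and 6.16 in SAB and 4.45, 4.08 and 4.12 in AB, a rise of 2.17 (limma adjusted p = 0.00278). AT4G07820, of the same family, moved in the opposite direction. It read 6.62, 6.61 and 6.92 in SAB and 8.50, 8.36 and 8.28 in AB, a fall of 1.66 (limma adjusted p = 0.000568). Separate groups were a condition for naming both genes.

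THI2.2, a thionin, which is a small cysteine-rich antimicrobial peptide, had the largest fall of the defence genes named here. It read 5.51, 4.90 and 4.96 in SAB and 8.09, 8.05 and 7.52 in AB, so that SAB was 6.79-fold lower (difference -2.76 ± 0.21, SE, limma adjusted p = 0.000503). The 3 SAB arrays lay close to the SIZ1 line (4.99 ± 0.07, SD, n = 3), and AB lay above COL (6.70 ± 0.29).

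AT1G26380, an oxidase of the berberine-bridge type that acts in the making of indolic defence compounds, averaged 5.70 ± 0.14 in SAB and 3.95 ± 0.55 in AB (SD, n = 3 each), a rise of 1.75 (limma adjusted p = 0.0127). AT2G37870, of the lipid-transfer protein type, read 5.53, 6.36 and 6.30 in SAB and 3.99, 4.21 and 3.86 in AB, a rise of 2.04 (limma adjusted p = 0.00304). SAB 1 was the lowest SAB array for it.

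The other rises with a known role were of single genes. AT2G41090, a calmodulin-like calcium-binding protein, averaged 7.87 ± 0.25 in SAB and 5.97 ± 0.37 in AB (rise 1.91, limma adjusted p = 0.00304). AT1G08230, the transporter GAT1 of the amino acid GABA, read 5.26, 5.36 and 4.97 in SAB and 3.55, 3.79 and 3.31 in AB (rise 1.64, limma adjusted p = 0.00312). BCAT4 starts the lengthening of methionine side chains for aliphatic glucosinolates, the mustard oil precursors that deter herbivores. It read 7.64, 7.49 and 7.34 in SAB and 5.43, 5.44 and 6.11 in AB, a rise of 1.83 (limma adjusted p = 0.0107). AB 3 was the highest AB array, and its pair gave the smallest of the 3 within-number differences, 1.24 against 2.21 and 2.06.

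AT3G57010, of the strictosidine synthase-like family, rose by 1.52 (limma adjusted p = 0.0022). The other 3 of the 12 largest rises are AT1G72800, AT1G27030 and AT2G18210. AT1G72800 read 5.67, 5.99 and 5.99 in SAB and 3.07, 3.08 and 3.09 in AB, a rise of 2.80 (limma adjusted p = 0.000568). AT1G27030 rose by 2.54 and AT2G18210 by 2.28 (limma adjusted p = 0.000271 and 5.04e-05). All 12 rises kept their call when any 1 array was left out and in the paired fit of all arrays, and all 12 lost it in the paired fit of the SAB and AB arrays alone. Without both AB 1 and AB 2, AT3G16530 (limma adjusted p = 0.126) and BCAT4 (0.225) lost it. With RNA amount as a covariate, AT3G16530 (limma adjusted p = 0.1002), AT2G41090 (0.0637) and BCAT4 (0.186) were no longer called.

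Seed transcripts were among the 12 largest falls. M17, a late embryogenesis abundant protein that protects drying seeds, read 2.47, 3.66 and 3.12 in SAB and 5.42, 7.13 and 5.40 in AB. It fell by 2.90 ± 0.52 (SE, limma adjusted p = 0.0158), and AB 2 stood above the other AB arrays. Separate groups were a condition for its choice. The call ended without SAB 1 or without SAB 3 (limma adjusted p up to 0.0580), in a fit of the SAB and AB arrays alone (0.0679) and with RNA amount as a covariate (0.228). AT2G28490, a vicilin-like globulin of seed storage, read 2.41, 2.44 and 2.51 in SAB, at the floor of the scale, and 5.22, 4.47 and 4.17 in AB. It fell by 2.17 (limma adjusted p = 0.0106, and 0.0821 with RNA amount as a covariate).

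The AB line was the high one for both seed transcripts. M17 averaged 2.51 ± 0.07 in the SIZ1 line and 3.18 ± 0.74 in COL (SD, n = 3 each), and AT2G28490 averaged 2.42 ± 0.01 in the SIZ1 line and 2.93 ± 0.75 in COL. COL 3 was the highest COL array for both, at 4.02 for M17 and 3.79 for AT2G28490. Of 5 measured seed reserve genes AT2G28490 was the only one called. PAP85, another vicilin-like protein, averaged 2.25 ± 0.05 in SAB and 3.41 ± 0.76 in AB, with groups that did not overlap and a limma adjusted p of 0.0579, and OLEO3, an oil body protein, lay at 2.28 to 2.33 in SAB and 2.29 to 2.31 in AB. AT2G18540 and AT4G36700 differed by 0.024 and -0.084 without a call, and the median difference over the 5 genes was -0.084. Summed over the 5 genes on the linear scale, the level was 29.5 to 34.8 in SAB and 47.3 to 65.5 in AB. It was 29.0 to 29.4 in the SIZ1 line and 30.1 to 38.2 in COL. The sum includes AT2G28490, which was named for the size of its fall, so it is not separate evidence for the group. Fewer cells of a seed type and less RNA per cell cannot be told apart in whole seedlings.

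AT5G22580, a small protein with a stress-responsive A/B barrel domain, read 4.71, 4.92 and 4.14 in SAB and 6.27, 6.65 and 6.77 in AB, a fall of 1.98 (limma adjusted p = 0.0069). AT3G44190, of the family of FAD-binding oxidoreductases, fell by 1.48 (limma adjusted p = 0.00663, and 0.0835 with RNA amount as a covariate). Both were named on the condition of separate groups. SIZ1 itself and a set of plastid-encoded transcripts complete the 12 largest falls. Without both AB 1 and AB 2, THI2.2, AT4G07820 and the brighter SIZ1 probe set kept their call among the 12, and the others lost it (limma adjusted p up to 0.170, for AT2G28490).

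**Figure D2:**
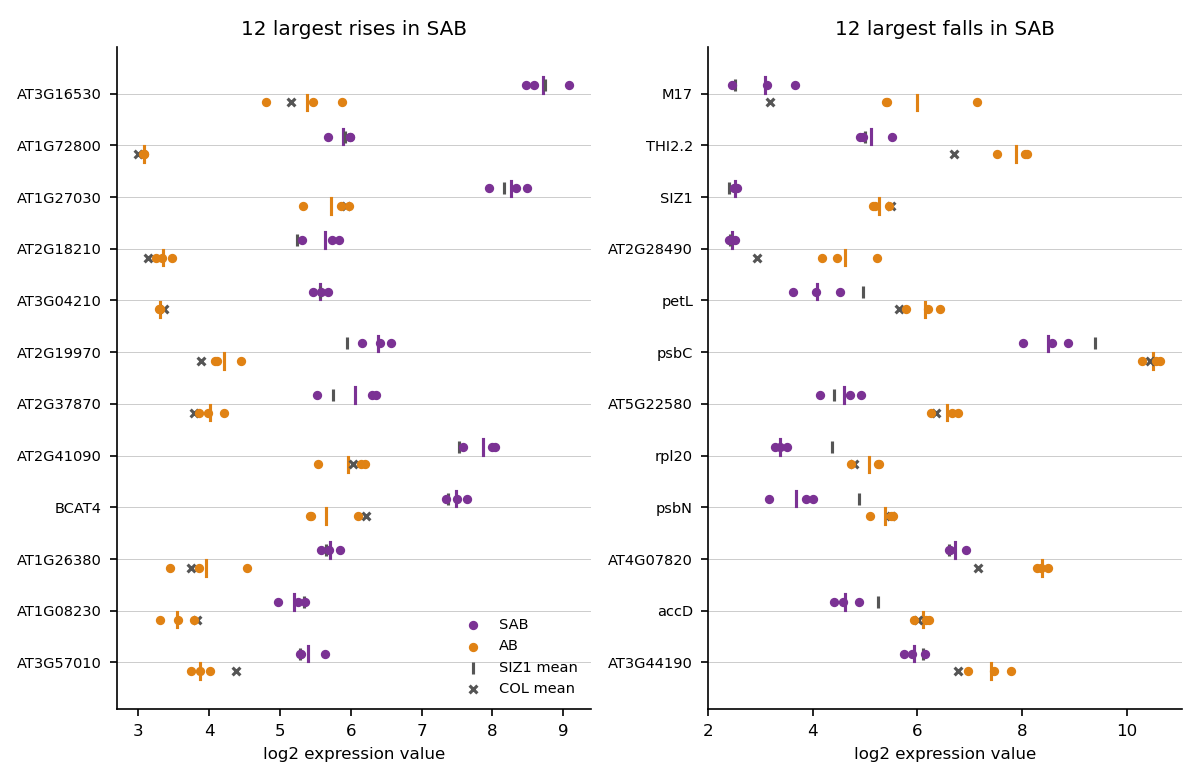
The 12 largest rises (left) and 12 largest falls (right) among called probe sets that name 1 gene, with the log2 expression value on the x axis. Purple points are the 3 SAB arrays and orange points below them the 3 AB arrays, coloured ticks mark their means, and grey marks give the means of the SIZ1 line (tick) and COL (cross). Separate SAB and AB points were required for a gene to be chosen. The SIZ1 line lies nearer SAB for all 12 rises and for 10 of the 12 falls.

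A part of the plastid-encoded transcripts was lower in SAB. The plastid genome encodes the core of the photosystems and part of the machinery that expresses it, and most of the other chloroplast proteins are encoded in the nucleus. Of 69 plastid genes measured, 23 were called lower and none higher, where 1.94% of all named genes were called lower. The median difference over the 69 was -0.46, against 0.0053 over all named genes, and 57 of the 69 differences were negative. The 23 falls were between 0.46 and 2.07, and 13 of them reached at least 1.

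Photosystem II, the complex that splits water, held 9 of the 23, out of 15 genes measured. psbC encodes CP43, an inner antenna of its core, and read 8.57, 8.87 and 8.02 in SAB and 10.64, 10.30 and 10.57 in AB. SAB was 4.04-fold lower (difference -2.02, limma adjusted p = 0.00395), and the highest SAB array lay more than 1 below the lowest AB array. psbN, which is needed to assemble the complex, read 3.87, 4.01 and 3.16 in SAB and 5.49, 5.10 and 5.53 in AB, a fall of 1.69 (limma adjusted p = 0.0106). The reaction centre genes psbA and psbD fell by 0.60 and 0.88 (limma adjusted p = 0.0484 and 0.0185), and the call of psbA ended in the paired fit (limma adjusted p = 0.069). psbM was level, with 12.02 to 12.08 in SAB and 11.97 to 12.05 in AB.

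In photosystem I, 3 of 5 genes were called lower, and psaI had the largest of these falls, 0.71. In the cytochrome b6f complex, which carries electrons between the photosystems, 2 of 6 were called. Its petL had the largest fall of any plastid gene, with 4.07, 4.53 and 3.62 in SAB and 6.44, 5.79 and 6.20 in AB (difference -2.07, limma adjusted p = 0.0116). petA, which encodes cytochrome f, fell by 0.89 (limma adjusted p = 0.0133). In the ATP synthase 2 of 6 were called, atpH (-1.39) and atpF (-1.30). In the NADH dehydrogenase-like complex 2 of 10 were called, ndhK (-1.35) and ndhJ (-1.12).

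Plastid gene expression is served by ribosomal proteins and an RNA polymerase that the plastid encodes in part. Among 15 ribosomal protein genes only rpl20 was called, at 3.50, 3.29 and 3.37 in SAB and 5.27, 4.72 and 5.25 in AB (fall 1.70, limma adjusted p = 0.00726), and rps15 was called lower only in the paired fit (difference -0.57, limma adjusted p = 0.0526, paired 0.0353). None of the 4 genes of the plastid RNA polymerase was called, and rpoC2 had the largest of their differences, -0.77 (limma adjusted p = 0.0818). Of 8 other genes 4 were lower. They are accD, for a subunit of the acetyl-CoA carboxylase of fatty acid synthesis (-1.48), cemA (-1.39), the photosystem I assembly factor ycf4 (-1.09) and rbcL, the large subunit of Rubisco (-0.60). accD read 4.40, 4.58 and 4.88 in SAB and 6.17, 5.93 and 6.22 in AB (limma adjusted p = 0.00333).

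The size of the plastid falls differed between arrays. Among the 23 transcripts, the difference between the arrays numbered 2 was the smallest of the 3 in 22, AB 2 was the lowest AB array in 22 and SAB 3 the lowest SAB array in 19. The median over the plastid transcripts of each array was 7.45 to 7.88 in SAB and 8.18 to 8.52 in AB, against 7.57 to 7.89 in the SIZ1 line and 8.08 to 8.33 in COL. The count of 23 was the same in the paired fit of all arrays, 17 with RNA amount as a covariate, and 0 in the paired fit of SAB and AB alone. It was 4 without AB 1 and AB 2, 13 without AB 1, 14 without SAB 3, and 15 without SAB 1 and also 15 without AB 3. Plastid transcripts mostly lack stable poly-A tails, and the part of the Actin and poly-A control values given above in this difference was not tested.

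**Figure D3:**
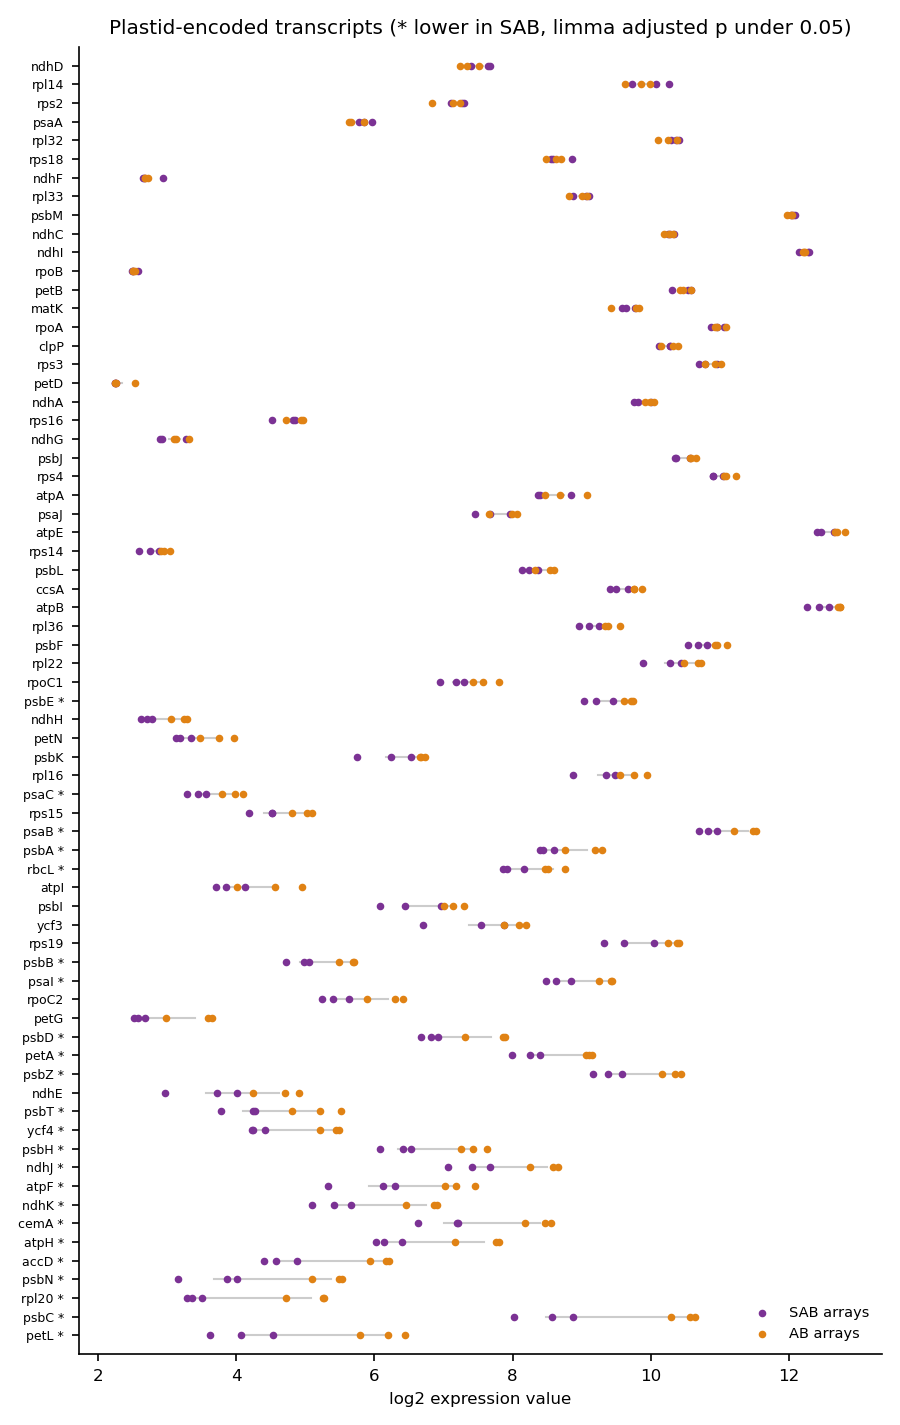
Level of each of the 69 plastid-encoded transcripts in the 3 SAB arrays (purple) and 3 AB arrays (orange), in log2 expression value on the x axis, ordered from the largest positive difference at the top to the largest fall at the bottom. A grey line joins the means, and an asterisk marks the 23 transcripts called lower, among which petL, psbC, rpl20 and psbN have the widest gaps.

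Of 26 listed nuclear genes of photosynthesis 3 were measured under a name, and none was called. So few genes do not show how the nuclear genes as a group compare with the plastid ones. LHCB4.1, LHCB4.2 and LHCB4.3, minor antenna proteins of photosystem II, were the 3 measured, with differences of -0.08, -0.52 and 0.20. LHCB4.2 read 10.42, 10.57 and 10.24 in SAB and 11.02, 11.10 and 10.66 in AB, groups that did not overlap. Its limma adjusted p was 0.0852, and 0.0343 in the paired fit. In the SIZ1 line against COL, LHCB4.2 and LHCB4.1 were called lower, with differences of -0.84 and -0.19 (limma adjusted p = 0.0169 and 0.028), and LHCB4.3 was not called.

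Few members of the stress and hormone groups could be measured under a name, so the counts below cover only part of each group. Members without a named probe set are not counted. In the SUMO pathway only the SIZ1 transcript was called among 5 genes. The others were SPF1, AT4G33620 (SPF2) and ULP1B, both proteases, and SAE1A, a subunit of the activating enzyme, with differences of 0.01 to 0.19. Of 23 loci of salicylic acid defence 3 were measured under a name, and none was called. All 3 lay below the median of all probe set means (3.51) in both SAB and AB, so little can be read from them. SAG101, which works with EDS1 in immune signalling, read 3.28 to 3.46 in SAB and 3.14 to 3.59 in AB, and the largest difference was that of GRX480, -0.44 (limma adjusted p = 0.18).

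The jasmonate list held 4 measured genes, of which THI2.2, described above, was the only one called. The defensins PDF1.2 and PDF1.2b averaged 4.32 ± 0.59 and 3.66 ± 0.86 in SAB, and 3.44 ± 0.47 and 3.09 ± 0.62 in AB (SD, n = 3 each). Neither was called (limma adjusted p = 0.478 and 0.773). None of 7 WRKY factors, 12 glutathione transferases, 18 cytochrome P450 genes or 2 chitinases was called. CHI, a chitinase, which cuts a polymer of fungal walls, was called higher only in the paired fit (difference 0.85, limma adjusted p = 0.0543, paired 0.0232). GSTU20, a glutathione transferase, read 8.95, 8.90 and 8.29 in SAB and 7.33, 7.32 and 7.60 in AB (limma adjusted p = 0.0747). WRKY22 was called lower only in the paired fit (difference -0.70, limma adjusted p = 0.36, paired 0.045).

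In the cold group 1 of 4 genes was lower. COR47, a dehydrin that protects membranes in cold and drought, read 10.06, 10.22 and 10.07 in SAB and 10.62, 10.61 and 10.29 in AB (fall 0.39, limma adjusted p = 0.0458). COR15A, which protects chloroplast membranes, read 8.19, 8.65 and 7.69 in SAB and 7.80, 7.48 and 6.99 in AB, groups that overlapped (limma adjusted p = 0.239). LTI30, another dehydrin, was called higher only in the paired fit (difference 0.43, limma adjusted p = 0.0828, paired 0.0458). The call of COR47 ended on leaving out any of 10 of the 12 arrays, all but AB 3 and COL 1, with a limma adjusted p of up to 0.151.

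In the heat shock group 2 of 7 genes were lower. AT2G29500, a small heat shock protein that holds unfolded proteins, read 3.60, 3.51 and 3.54 in SAB and 4.20, 4.23 and 4.04 in AB (fall 0.61, limma adjusted p = 0.0112, and 0.0814 with RNA amount as a covariate). The SIZ1 line and COL both averaged 3.57, so AB was the high line. Fes1A, a partner of HSP70 chaperones, fell by 0.72 (limma adjusted p = 0.0469), a call that ended on leaving out any of 10 arrays (up to 0.139). The others included AT5G48570 (ROF2), a folding helper, at 2.74 to 2.93 in SAB and 3.37 to 3.82 in AB without a call (limma adjusted p = 0.0732).

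The clock and copper lists had 1 measured gene each. GI, a clock protein that also promotes flowering, read 5.64, 5.62 and 5.40 in SAB and 6.56, 6.58 and 6.03 in AB, a fall of 0.84 (limma adjusted p = 0.0257). Its call ended without any of SAB 1, SAB 2, SAB 3, AB 1 or AB 2 (up to 0.0962). CCS, the chaperone that loads copper into superoxide dismutase, read 4.85, 4.83 and 5.09 in SAB and 5.56, 5.50 and 5.75 in AB, a fall of 0.68 (limma adjusted p = 0.0143). Its call ended without SAB 1 or without SAB 2 (up to 0.0549). SWEET2, a sugar carrier of the vacuole, was the only one called of 5 sugar and starch genes. It read 6.20, 6.59 and 6.85 in SAB and 5.60, 5.47 and 5.18 in AB, a rise of 1.13 (limma adjusted p = 0.023) that was lost without SAB 2, SAB 3, AB 2 or AB 3 (up to 0.0794).

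Glucosinolates, glycosylation and wall loosening were covered by 4 lists. Of 3 glucosinolate genes 2 were higher, BCAT4 and AT2G31790, a glucosyltransferase of glucosinolate synthesis (rise 0.55, limma adjusted p = 0.0313), and the third, UGT74B1, differed by 0.33 without a call. The call of AT2G31790 ended without any of the SAB and AB arrays other than SAB 3 (up to 0.110). Of 43 UDP-glycosyltransferases listed by words in their symbols and synonyms, UGT85A4 rose by 0.60 and UGT72E1, which attaches glucose to lignin precursors, fell by 0.74 (limma adjusted p = 0.00549 and 0.011). The median over the family was 0.03. Every SAB value lay above every AB value in 10 of the 43, and below in 1. Among all 13355 named genes this held for 1243 above and 1239 below. UGT73C7 was called higher only in the paired fit (difference 0.63, limma adjusted p = 0.0902, paired 0.0441). The words missed other genes of this family, and the glucosyltransferase AT2G31790 is not in the list either. Of the missed genes UGT76B1 and UGT72E2 were called, and they are named after their values were seen. The missed genes were not counted, so these rises give no direction for the family. UGT76B1, which attaches glucose to salicylic acid and to other immune signals, averaged 5.84 in SAB and 4.36 in AB, a rise of 1.48 (limma adjusted p = 0.00278). UGT72E2, which attaches glucose to lignin precursors as UGT72E1 does, averaged 6.10 in SAB and 5.35 in AB, a rise of 0.74 (limma adjusted p = 0.0216). None of 5 flavonoid and 3 auxin genes was called.

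Of 9 xyloglucan endotransglucosylases 2 were called higher, and so were 2 of 18 expansins, and none was called lower in the main fit. Differences were negative in 4 of the 9, down to -0.93, and in 6 of the 18, down to -1.45. XTH20, an enzyme that cuts and rejoins xyloglucan, averaged 3.96 ± 0.34 in SAB and 2.76 ± 0.15 in AB (SD, n = 3 each), a rise of 1.19 (limma adjusted p = 0.00721, and 0.128 with RNA amount as a covariate). XTH16 and the expansins EXPB3 and EXPA4 rose by 0.79, 0.90 and 0.72 (limma adjusted p = 0.0325, 0.0288 and 0.0224). Each of these 3 calls ended on leaving out at least 3 of the SAB and AB arrays in turn, with limma adjusted p of up to 0.119, 0.0962 and 0.0739. EXPA8, at 5.48 ± 0.71 in SAB and 6.93 ± 0.53 in AB, and EXLA1, at 6.14 ± 0.27 in SAB and 7.14 ± 0.74 in AB, were called lower only in the paired fit (limma adjusted p = 0.0818 and 0.265, paired 0.00794 and 0.0269). EXPA9 was called higher only there (difference 0.57, limma adjusted p = 0.0873, paired 0.0453), and XTH32 lower (difference -0.93, limma adjusted p = 0.0517, paired 0.0262).

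The lists of jacalin-type lectins and of calmodulin-like proteins had 1 called member each, and neither list holds AT1G33790 or AT2G41090. AT1G33790, a jacalin-type lectin outside the list, was called lower in SAB (difference -1.02, limma adjusted p = 0.00241). AT1G52100, another outside it, was lower only in the paired fit (difference -0.69, limma adjusted p = 0.108, paired 0.00415). The family thus moved in both directions. JAL22, a jacalin-type lectin, read 10.16, 10.11 and 9.84 in SAB and 9.01, 8.87 and 8.84 in AB, a rise of 1.13 (limma adjusted p = 0.000704). Of the other jacalin-type genes of the list JAL34 was lower only in the paired fit (difference -0.23, limma adjusted p = 0.228, paired 0.0366) and JAL23 was not called. CML42, a calmodulin-like protein of trichomes, rose by 0.96 (limma adjusted p = 0.0252), a call that ended without SAB 1, SAB 3, AB 2 or AB 3 (up to 0.0868).

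The ATG8 family, whose proteins coat autophagy membranes, had 8 negative differences of 9 and none called. The median difference was -0.16, and ATG8F read 8.99, 9.11 and 9.25 in SAB and 9.42, 9.41 and 9.47 in AB (limma adjusted p = 0.0539, and 0.0295 in the paired fit). Among 5 genes often used as a reference GAPC2, of glycolysis, was higher, at 11.19, 11.12 and 11.10 in SAB and 10.74, 10.86 and 10.70 in AB (rise 0.37, limma adjusted p = 0.0069, and 0.116 with RNA amount as a covariate). The other 4 differed by -0.15 to -0.0047. None of 4 root genes was called, and their summed linear level was 3830 to 3928 in SAB and 3572 to 3679 in AB. With RNA amount as a covariate the calls of COR47, Fes1A, GI, AT2G31790, CCS, UGT72E1, UGT85A4, XTH16, EXPB3, EXPA4 and CML42 also ended, and those of SWEET2 and JAL22 did not.

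**Figure D4:**
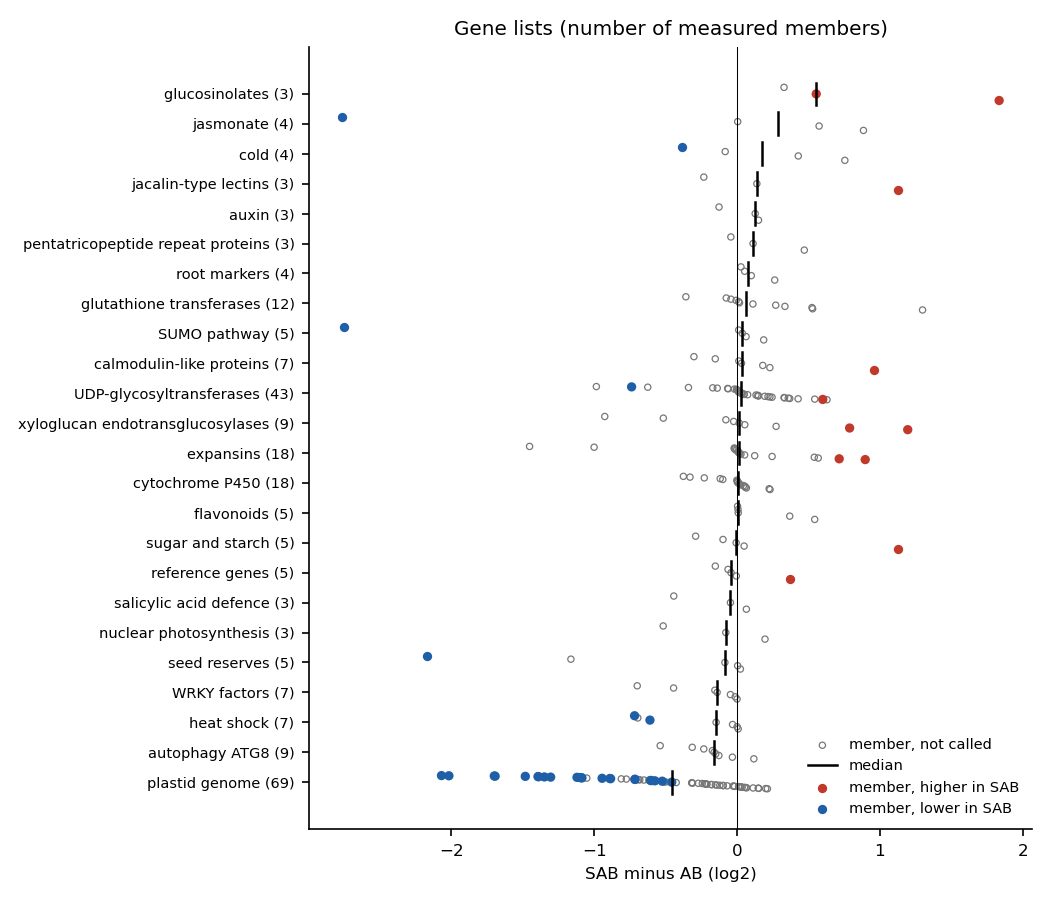
Differences of SAB minus AB on the log2 scale for the measured members of each gene list with at least 3 of them, ordered by the list's median (black tick). Filled red and blue points are members called higher and lower. The plastid genome, with 23 of 69 lower and a median of -0.46, is the list with the most calls, and most other medians lie near 0.

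The same question in plants without the AB insertions was answered by the SIZ1 line against COL, which shares no array with SAB against AB. That comparison called 732 probe sets (3.22%), 438 higher in the SIZ1 line (1.93%) and 294 lower (1.29%). Called in both and in the same direction were 385 probe sets, 255 higher and 130 lower, and none was called in opposite directions. They make up 38.2% of the SAB calls and 52.6% of the SIZ1 calls. Of the 1007 probe sets called in SAB against AB, 954 had the same sign in the SIZ1 line against COL (94.7%), where 57.3% of all probe sets did.

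Across the 22746 probe sets the differences of both comparisons had a Pearson r of 0.709 and a Spearman rho of 0.493. Probe sets are not independent of each other, and the arrays of both comparisons share the replicate numbers. The median difference between the SIZ1 line and COL was 0.47 for the 534 probe sets called higher in SAB and -0.32 for the 473 called lower. The same probe sets had medians of 0.63 and -0.54 in SAB against AB, the comparison that chose them.

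The levels of the SIZ1 line and COL took no part in the differences of SAB and AB, only in the shared estimate of spread, and their places were counted for the called probe sets. The mean of the SIZ1 line lay nearer to SAB than to AB in 938 of 1007 (93.1%), where it did so in 55.4% of all probe sets. The COL mean lay nearer to AB in 777 (77.2%), against 62% of all probe sets. For 230 called probe sets COL lay nearer to SAB, where it did so in 8649 of all 22746. Whether AB differed from the wild type in those 230 was not tested.

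Several of the named genes illustrate both patterns. AT3G16530 averaged 8.74 ± 0.26 in the SIZ1 line and 5.15 ± 1.01 in COL (SD, n = 3 each), nearly the levels of SAB and AB, and JAL22 averaged 9.86 ± 0.06 and 8.87 ± 0.13. M17, AT2G28490 and AT4G07820 were the 3 of the 12 falls in which COL lay nearer to SAB. AT4G07820 averaged 6.59 ± 0.21 in the SIZ1 line and 7.16 ± 0.18 in COL, and AB was higher than all other lines.

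**Figure D5:**
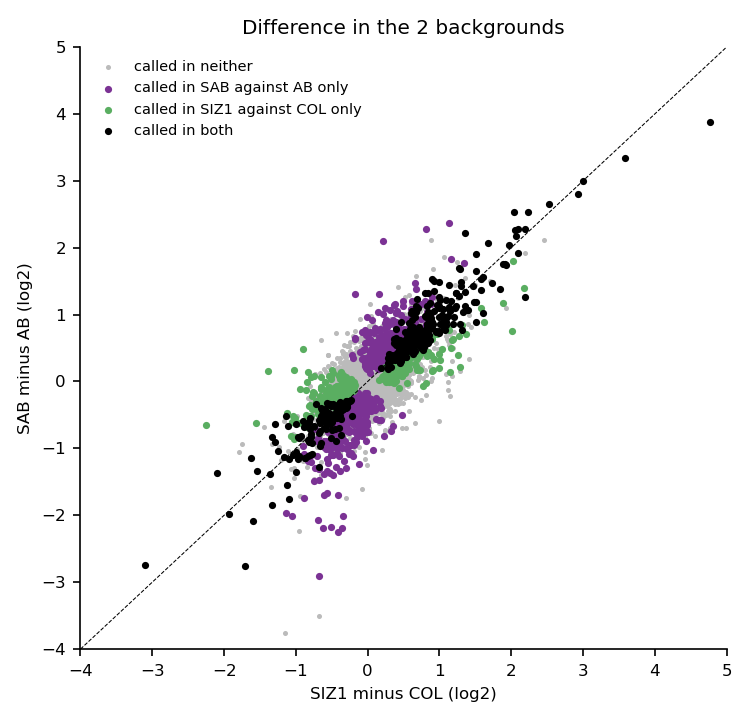
Each point is 1 probe set, with the SIZ1 line minus COL on the x axis and SAB minus AB on the y axis (both log2), and the dashed line marks equal differences. Black points, the 385 called in both, follow the line, and no point is black in the upper left or lower right. Purple points are called in SAB against AB alone and green points in the SIZ1 line against COL alone.

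The difference between both ligase effects was tested directly, as SAB minus AB minus the difference of the SIZ1 line and COL. No probe set was called by limma, the only tool used for this test, with a lowest adjusted p of 0.0555 and 1218 of 22746 at an unadjusted p under 0.05. With the replicate number as a block 12 were called (0.0528%), 5 higher and 7 lower. The plastid falls show how the comparisons can be read. petL differed by -2.07 in SAB against AB and by -0.69 in the SIZ1 line against COL, and the difference between these was not called (limma adjusted p = 0.818). Among plastid transcripts 7 were lower in the SIZ1 line than in COL, with a median of -0.30 over the 69, and 23 were lower in SAB than in AB. No plastid transcript's effect was shown to differ between the backgrounds.

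The same held for genes with visibly unequal effects. THI2.2 fell by 2.76 in SAB against AB and by 1.71 in the SIZ1 line against COL, with a difference of -1.05 ± 0.30 (SE) that was not called (limma adjusted p = 0.631, paired 0.267). BCAT4 rose by 1.83 in SAB against AB, and its difference of 1.15 between the SIZ1 line and COL was not called (limma adjusted p = 0.0759). The difference between its effects was 0.68 ± 0.42 (SE, limma adjusted p = 0.92).

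QQS, an Arabidopsis orphan gene that influences starch content, was chosen after its values were seen. It read 4.95, 4.56 and 5.16 in SAB and 3.62, 3.29 and 3.84 in AB, with within-number differences of 1.33, 1.27 and 1.33. The rise of 1.31 was called (limma adjusted p = 0.0164), and the call ended without SAB 1, SAB 3, AB 1 or AB 2 (up to 0.0663) and with RNA amount as a covariate (0.245). QQS averaged 3.30 ± 0.41 in the SIZ1 line and 3.47 ± 0.22 in COL, a difference of -0.17, and the difference between the effects was not called (limma adjusted p = 0.517, paired 0.323).

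Large changes were also seen in probe sets that are unnamed here, picked by size after their values were seen. Probe set 256766_at read 7.92, 7.94 and 6.91 in SAB and 2.69, 4.66 and 3.76 in AB, a rise of 3.89 (limma adjusted p = 0.00392). Probe set 252265_at averaged 6.39 ± 0.32 in SAB and 3.39 ± 0.48 in AB, and 249353_at and 260088_at fell by 2.24 and 2.20. In the last pair AB was again the high line, with means of 5.06 and 4.52 against 3.22 and 2.55 in COL. The COL arrays were uneven. COL 1, COL 2 and COL 3 read 2.78, 2.78 and 4.10 for 249353_at, and 2.27, 2.28 and 3.11 for 260088_at.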

How the data were processed

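Each ATH1 array was summarised by the authors as log2 expression per probe set, with GCRMA according to the submitters' processing notes, and deposited in that form. This method corrects background by probe sequence and normalizes between arrays, and dim probe sets end near a shared floor where changes are understated. The log2 scale was read from the range, 2.02 to 13.21. The version and whether all arrays were processed together are not given in the sources used here. Detection calls were not used here, and the number of arrays limits the precision.

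Gene names came from GEO's platform table, with 13436 symbols updated through RefSeq's TAIR10.1 gene table. Exactly 1 gene was named for 13513 probe sets, several for 503 and none for 8730. The values were used as they stand. A linear model with 1 term per line was fitted to all 12 arrays with limma 3.58.1 in R 4.3.3 (lmFit, eBayes, two-sided, Benjamini-Hochberg over 22746 probe sets, 8 residual and 1.31 prior degrees of freedom). The code was also run on simulated arrays with independent noise and no effect of replicate number. That setting lacks the correlations described below, so it does not test the calls under them. The difference of SAB minus AB is the main result.

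Replicate numbers were used to pair the samples. Deviations from line means correlated at 0.159 to 0.352 in the 3 same-number pairs of SAB and AB, and at -0.316 to 0.0325 in the 6 others. In all 18 same-number pairs they correlated at 0.102 to 0.451. Deviations cancel within a line, so the values of the other pairs are not independent of those of the same-number pairs. The paired fit adds the number as a block. No arrays were identical.

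The text names 12 genes by size of rise and 12 by size of fall, from called probe sets with 1 gene, separated groups and 3 same-sign within-number differences, leaving out those below the median of all means (3.51) in both lines, plus SIZ1, SPF1 and up to 4 called members per list. The comparison, lists and tests were chosen with earlier results of these data known. Of 349 loci in 25 lists 68 were measured under a name, and 8 lists had no member. Families were formed by words in gene symbols and synonyms, which misses members without such a word, and 16 of 28 word searches found none. Lists are described by counts and medians, 1 probe set per locus, without set tests. Promoter and protein sequences were not used here.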

Additional observations from a re-analysis of the deposited data

Results flagged for a closer look

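The effect of the ligase loss differed between the AB and wild-type backgrounds for 3 named genes when arrays were blocked by replicate number, and none of them passed without the block. Values are the difference of SAB minus AB less the difference of the SIZ1 line minus COL. For AT1G52100, a jacalin-type lectin, it was -1.225 (limma adjusted p = 0.0230 with the block and 0.520 without), with means of 7.26 in SAB and 7.95 in AB and of 7.40 in the SIZ1 line and 6.87 in COL. For AT1G33790, of the same lectin family, it was -1.097 (0.0230 with the block, 0.245 without), with means of 3.05 in SAB and 4.07 in AB and of 3.13 in the SIZ1 line and 3.06 in COL. For AT5G24170, a vesicle transport protein of the Got1 type, it was -0.735 (0.0473 with the block, 0.245 without), with means of 4.13 in SAB and 4.71 in AB and of 4.36 in the SIZ1 line and 4.20 in COL. AB was the highest line for all 3 genes.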

How the results depend on the processing

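The 1007 probe sets called in SAB against AB became 1552 with the replicate number as a block, 738 in a fit of the SAB and AB arrays alone, 1 in that fit with the block, 161 with RNA amount as a covariate, 252 without AB 1 and AB 2, 280 at an adjusted p under 0.01, 175 with a change of at least 1, and 469 to 1156 without 1 array. The SIZ1 line against COL gave 1167 with the block and 317 to 909 without 1 array, against 732. The test of the difference gave 12 with the block, 2 with median centring, 3 among brighter probe sets, 2 with a trended robust prior, 6 without AB 1 and AB 2, and 0 to 3 without 1 array. Shared calls were 640 with the block, 107 with the covariate, 95 without AB 1 and AB 2 and 203 to 462 without 1 array, against 385. The r of 0.709 was 0.746 among brighter probe sets, 0.550 with the covariate, 0.598 without AB 1 and AB 2 and 0.652 to 0.709 without 1 array. SPF1 changed sign, uncalled, to -0.042 with the covariate, -0.18 without AB 1 and AB 2 and -0.12 without AB 2, within -0.12 to 0.19 over all fits without 1 array. Of 47 named probe sets, the covariate ended 23 calls, leaving out AB 1 and AB 2 ended 29, and the fit of SAB and AB alone with the block 45, where fewer residual degrees of freedom are left. With the block alone none of these 47 lost its call and 1 was gained, AT1G52100, while further members of lists that gained or lost a call are given beside their lists. Median centring and the trended robust prior ended none. The cause of the other changes was not tested. The test between backgrounds in the SAB and AB arrays alone gives no value, and promoter motifs were not run. RNA amount does not overlap between SAB and AB and cannot be told apart from the line. Changes at the floor of the scale, such as that of AT2G28490, are lower estimates.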

Other observations

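Among the 12 probe sets whose ligase effect differed between backgrounds with the replicate block, 9 are unnamed here, and they were picked after their values were seen. Probe set 247162_at read 7.42, 7.61 and 7.94 in SAB and 5.60, 5.51 and 5.56 in AB, a difference of 2.10, while the SIZ1 line averaged 7.38 ± 0.20 and COL 7.16 ± 0.18 (SD, n = 3 each). Here AB was the low line. Probe set 260957_at averaged 3.46 ± 0.09 in SAB and 3.31 ± 0.01 in AB, and 3.44 ± 0.01 in the SIZ1 line and 4.82 ± 0.28 in COL, so only COL was high. Probe set 256598_at averaged 3.76 ± 0.58 in SAB and 5.77 ± 0.25 in AB, and 4.12 ± 0.54 in the SIZ1 line and 4.47 ± 0.42 in COL.

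AT1G11850, chosen after its values were seen, moved in the reverse direction to the jacalin-type lectins AT1G52100 and AT1G33790. It read 4.66, 4.76 and 4.68 in SAB and 3.96, 4.01 and 4.02 in AB, a rise of 0.71 (limma adjusted p = 0.00256), and averaged 4.60 ± 0.14 in both the SIZ1 line and COL. The difference between the effects was 0.70 ± 0.11 (SE, limma adjusted p = 0.245, paired 0.187).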
